A study of Homo sapiens with 6 samples.

Results

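The genes described here are the well-expressed ZNF genes of TF-1 cells: genes whose annotated symbol is ZNF, digits and an optional letter, on array probe sets with exactly 1 symbol, with a mean log2 intensity of 7 or more over all 6 arrays. Of 479 ZNF genes measured among 18377 genes, 198 met that level and 281 lay under it. Members were thus chosen by their level over both groups, which is given as a description. The 3 members just above it were ZNF548 (7.001), ZNF606 (7.002) and ZNF620 (7.003), and the 3 genes just under it were ZNF28 (6.998), ZNF439 (6.989) and ZNF775 (6.987). Members averaged 7.58 at the median and 11.41 at the highest, in ZNF626. TF-1 was derived from a patient's erythroleukaemia and depends on cytokines such as interleukin-3. The cells carried human PRL-3, the phosphatase encoded by PTP4A3, or the pEGFP control vector, with 3 arrays each (PRL-3 4 to 6, control 1 to 3). Both were grown in RPMI with 10% fetal bovine serum and 5 ng/ml interleukin-3. The labels do not say whether either line was a clone or a pool, nor whether replicate arrays stem from different cultures, so each p-value covers the spread from array to array, which may be technical.

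ZNF is the symbol of most human C2H2 zinc finger genes. Each finger is a short loop that holds a zinc ion between cysteines and histidines and reads a few bases of DNA, and arrays of fingers give each protein its own target sequence. Most carry a KRAB domain, which recruits the corepressor TRIM28 and with it the histone methyltransferase SETDB1, and many of these silence transposable elements. KRAB genes arose by tandem duplication and lie in clusters of similar copies, above all on chromosome 19. Others have no KRAB domain and act as activators, chromatin partners or RNA processing factors.

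The deposited intensities were taken to log2, and all differences are PRL-3 minus control on that scale, with limma's moderated standard error. A gene passed at a Benjamini-Hochberg adjusted p under 0.05 over all 18377 genes. The transfected gene PTP4A3 read 10.81, 10.93 and 10.79 on PRL-3 arrays, against 7.92, 8.03 and 7.97 on control arrays (difference 2.87 ± 0.072, adjusted p = 2.24e-06, limma). Median intensity per array was 89.8 to 92.9 over all probe sets. Across the members, which are not independent, pairs of arrays of 1 group had r between 0.949 and 0.983, and pairs of a PRL-3 and a control array between 0.910 and 0.955. Of 10 erythroid and myeloid progenitor markers 9 were measured, all at 7 or more, among them GATA1 and KLF1. KIT and CSF2RA were higher with PRL-3, and HBB and TFRC lower. Of 9 markers of lymphocytes, fibroblasts, epithelium and endothelium 8 were measured, 6 of them under 7, and 0 passed. PECAM1 (-0.30, adjusted p = 0.0531, limma) and CDH5 (-0.34, adjusted p = 0.150, limma), listed here as endothelial, had every PRL-3 array below every control array. The part of any of these markers in the ZNF results was not tested. COL1A1 and PECAM1 were the 2 at 7 or more, and PECAM1, at a mean of 10.38, was bright on all 6 arrays. Fewer cells of a type and less RNA per cell cannot be told apart in such bulk samples.

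Among the 198 members, 20 were lower and 6 were higher with PRL-3, and 172 did not pass. Over all genes tested, 3.11% were lower and 4.58% higher by the same test, 7.69% in all. Among the 8114 genes at the same level of 7 or more, 5.26% were lower and 6.96% higher. The members' own shares were 10.1% lower and 3.03% higher. The changes were small, with folds of 1.23 to 1.73 among the lower members and 1.23 to 1.83 among the higher ones, and 0 members changed by 2-fold. The counts depended on single arrays: 10, 12 and 9 members were lower without PRL-3 4, 5 and 6 in turn, and 12, 7 and 21 without control 1, 2 and 3, while 1, 7 and 1 and then 1, 2 and 10 were higher. An unequal-variance test of each gene gave 0 lower and 0 higher, with 45 members at an unadjusted p under 0.05, against 63 by limma.

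Of the 26 members that passed, 8 passed in each of the 6 fits with 1 array left out: ZNF577, ZNF75A, ZNF790, ZNF614, ZNF521, ZNF202, ZNF131 and ZNF670. The highest adjusted p (limma) of each of the others in these fits lay between 0.0608 (ZNF407) and 0.178 (ZNF350), and came without control 2, PRL-3 4 or PRL-3 6.

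The members as a whole lay slightly below 0. Their median difference was -0.056 and the middle of their range ran from -0.19 to 0.07 (quartiles), beside a median of -0.006 and quartiles of -0.14 to 0.14 for all genes at 7 or more. In all, 125 members had a negative difference and 73 a positive one. In 43 members, or 21.7%, every PRL-3 array lay below every control array. That share was 15.3% in genes at 7 or more and 12.2% in all genes tested. In 54 genes of other zinc finger families at 7 or more, described below, it was 25.9%, so it was not particular to the members. In 27 members, or 13.6%, every PRL-3 array lay above every control array. This is under the 16.6% of genes at 7 or more and near the 12.1% of all genes. An exact two-sided permutation test of a single gene gives p = 0.1 in such cases, the smallest that 3 arrays against 3 can give. Per array, the median over members was 7.61, 7.53 and 7.54 on PRL-3 arrays 4, 5 and 6, against 7.58, 7.62 and 7.60 on control arrays 1, 2 and 3. The groups overlapped in this median, since PRL-3 4 lay among the control arrays.

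**Figure D1:**
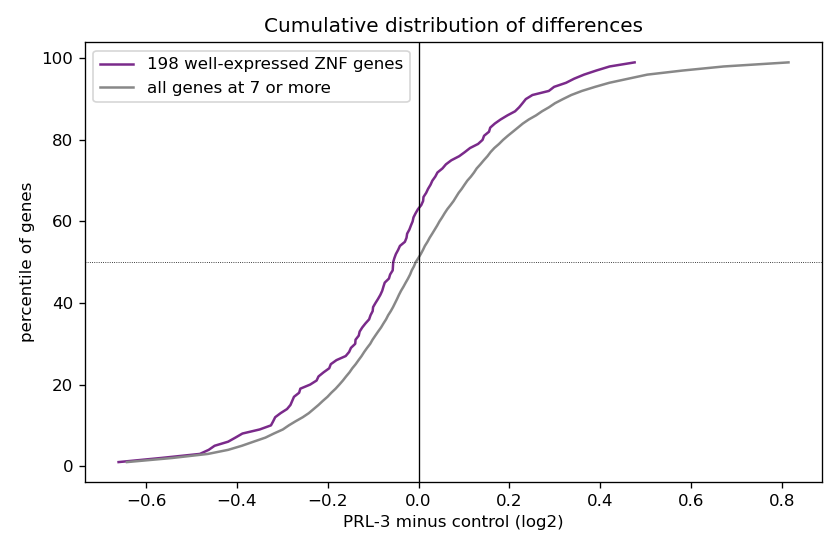
Cumulative distribution of the difference between PRL-3 and control arrays (log2, x axis) in percentiles (y axis) for the 198 well-expressed ZNF genes and for all genes at a mean log2 intensity of 7 or more. The ZNF curve crosses the middle at -0.056 and the curve of all genes at -0.006.

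Some members reached 7 through 1 group. In 25 members only 1 group mean was at 7 or more, among them 4 that fell (ZNF202, ZNF266, ZNF614 and ZNF616) and 2 that rose (ZNF670 and ZNF680). Over the 173 members with both group means at 7 or more, 16 were lower (9.25%) and 4 higher (2.31%). Among all genes at a mean of 7 or more, 5.26% were lower and 6.96% higher. The share of lower members was 7.58% in the dimmest of 3 equal bins by level, 10.6% in the middle bin and 12.1% in the brightest, of 66 genes each. The share with every PRL-3 array below every control array ran the other way, at 27.3%, 21.2% and 16.7%, as did the medians of -0.068, -0.055 and -0.046, so no trend with level is read from these bins.

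**Figure D2:**
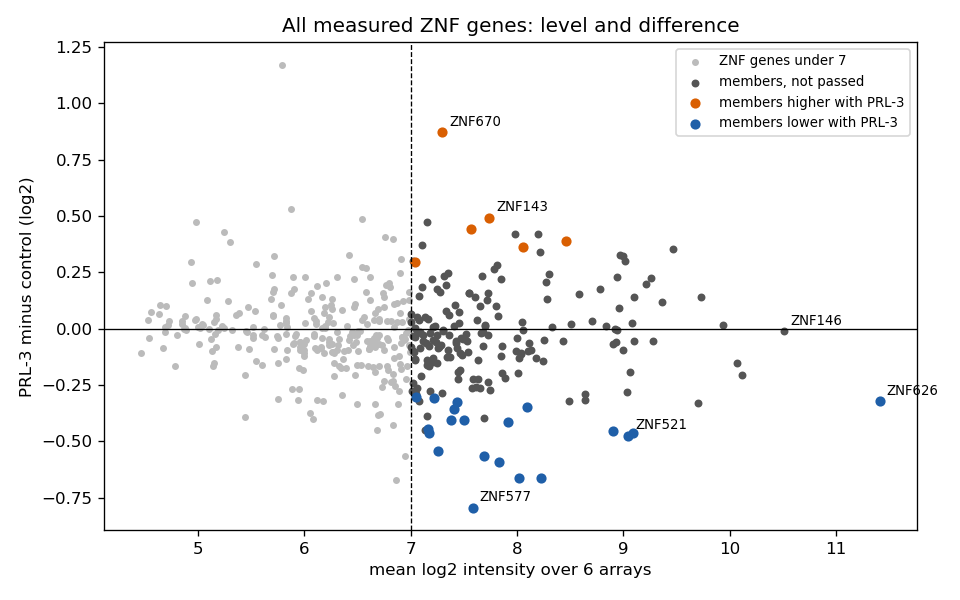
Difference between PRL-3 and control arrays (log2, y axis) against mean log2 intensity over 6 arrays (x axis) for all 479 measured ZNF genes, with the level of 7 as a dashed line. Lower members run from -0.30 to -0.79. Apart from ZNF626 at 11.41, the brightest of them are ZNF460 at 9.09 and ZNF521 at 9.05.

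Of the 20 lower members, 6 lay in 1 run of neighbouring ZNF genes on chromosome 19. The other 14 were among the 187 members outside that run. A run was a stretch of ZNF genes with at most 5 other protein-coding genes between one and the next, in the gene order of RefSeq on GRCh38.p14. The run extends from ZNF577 to ZNF331 and holds 35 measured ZNF genes, of which 11 are members. It was singled out after its values were seen. All 6 lower members, ZNF577, ZNF649, ZNF350, ZNF614, ZNF616 and ZNF480, lay at its ZNF577 end, where ZNF613 and ZNF432, which are under the level of 7, were lower too. From ZNF577 to ZNF480, ends that were also chosen after the values were seen, 8 of 12 measured ZNF genes were lower and 0 higher, and 11 had a negative difference (median -0.43). In the other 23 ZNF genes of the run 0 passed, with 17 below 0 and a median of -0.081.

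The promoters of 4 neighbours in this stretch are shown because 8 letters, ATGGCNGC on either strand, recur in them. They are the 250 bases before the annotated transcription start, from RefSeq (GRCh38.p14), read along the gene, with matches to ATGGCNGC or its reverse complement in capitals. ZNF577, ZNF350 and ZNF614 were lower with PRL-3, and ZNF615, which lies between the last 2, did not pass.
ZNF577, chr19:51887952-51888201, minus strand: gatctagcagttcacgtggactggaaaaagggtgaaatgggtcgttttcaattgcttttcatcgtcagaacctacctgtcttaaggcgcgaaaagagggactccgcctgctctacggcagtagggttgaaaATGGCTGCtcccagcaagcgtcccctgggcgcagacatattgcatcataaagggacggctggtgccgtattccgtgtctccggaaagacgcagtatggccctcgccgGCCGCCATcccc
ZNF350, chr19:51986841-51987090, minus strand: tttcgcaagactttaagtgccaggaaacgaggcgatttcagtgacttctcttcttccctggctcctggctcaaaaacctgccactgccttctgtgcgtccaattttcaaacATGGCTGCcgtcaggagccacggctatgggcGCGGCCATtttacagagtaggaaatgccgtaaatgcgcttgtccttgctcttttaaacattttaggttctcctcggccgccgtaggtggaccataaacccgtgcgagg
ZNF614, chr19:52028380-52028629, minus strand: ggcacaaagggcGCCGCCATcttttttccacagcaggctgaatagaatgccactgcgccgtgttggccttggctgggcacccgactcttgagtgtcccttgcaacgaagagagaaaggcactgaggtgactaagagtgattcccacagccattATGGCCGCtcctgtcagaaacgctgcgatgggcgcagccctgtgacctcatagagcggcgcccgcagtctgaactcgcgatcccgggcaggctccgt
ZNF615, chr19:52008212-52008461, minus strand: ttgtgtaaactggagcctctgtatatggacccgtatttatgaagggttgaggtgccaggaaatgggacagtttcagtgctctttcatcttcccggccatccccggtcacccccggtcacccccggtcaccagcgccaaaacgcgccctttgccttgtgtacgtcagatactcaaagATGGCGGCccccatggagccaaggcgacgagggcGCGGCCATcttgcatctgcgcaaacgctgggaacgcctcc
Each of the 4 holds 2 matches, 1 in each orientation.

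The match was counted as a string of letters in all promoters of the table, and whether any factor binds it was not tested. The letters were chosen after these sequences were read, so the counts carry no test. Of 27305 genes with a promoter, 5.22% held ATGGCNGC in at least 1 window, and of tested genes at 7 or more 6.97% did. Among members with a promoter, 17 of 177 held it (9.60%). These were 3 of 15 lower members, 0 of 6 higher ones and 14 of 156 that did not pass. The 3 lower members were ZNF577, ZNF350 and ZNF614, all of the run, so the match did not mark lower members in general. In the run, 29 of the 35 measured ZNF genes had a promoter, and the match was in 5 of 6 lower genes (ZNF577, ZNF613, ZNF350, ZNF614 and ZNF432) and in 1 of 23 others (ZNF615). These 6 genes are neighbours in a cluster of similar genes, so they are not independent. ZNF616, which was lower, had a promoter without the match. ZNF649 and ZNF480, the other 2 of the 8 lower genes, had no promoter among those used, so the match could not be looked for. Across all members, CCGGAAG, the core read by ETS factors, was in the promoters of 39.0% of genes, beside 20.4% of tested genes at 7 or more. It was in 5 of 15 lower members and 5 of 6 higher members with a promoter.

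ZNF577, a KRAB gene at the start of the run, fell most of all members. It read 7.33, 7.05 and 7.19 on PRL-3 arrays 4, 5 and 6, against 8.15, 7.89 and 7.91 on control arrays 1, 2 and 3. The groups were wide apart, by -0.79 ± 0.10 (adjusted p = 0.00359, limma), and this was the largest fall. Its neighbour ZNF649, a KRAB repressor, read 7.47, 7.18 and 7.58 with PRL-3 and 7.89, 7.99 and 8.05 in control (-0.57 ± 0.11, adjusted p = 0.0185, limma). PRL-3 5 was the lowest array in both genes. ZNF614 read 6.99, 7.05 and 6.91 with PRL-3, against 7.50, 7.59 and 7.48 in control (-0.54 ± 0.072, adjusted p = 0.00388, limma), with little spread in either group.

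ZNF350, also known as ZBRK1, is a KRAB repressor of the DNA damage gene GADD45A. It read 7.43, 7.23 and 7.23 on PRL-3 arrays, against 7.53, 7.83 and 7.74 on control arrays (-0.41 ± 0.099, adjusted p = 0.0455, limma). PRL-3 4 and control 1 lay close together. ZNF616 read 6.97, 6.91 and 6.94 with PRL-3 and 7.21, 7.33 and 7.61 in control (-0.45 ± 0.10, adjusted p = 0.0392, limma), and the spread lay in the control arrays. ZNF480 read 7.61, 7.28 and 7.72 with PRL-3, against 7.95, 8.11 and 8.33 in control (-0.59 ± 0.13, adjusted p = 0.0350, limma). It was the most variable of the lower members. ZNF350, ZNF616 and ZNF480 lost the call after quantile normalization (adjusted p = 0.0682, 0.0663 and 0.0610, limma), so that 3 of the 11 members of the run remained lower, and 3 were lower without PRL-3 5 or PRL-3 6, and 2 without PRL-3 4 or control 2. Without control 1 and PRL-3 5 together 6 were lower.

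The stretch was not lower throughout. ZNF841, between ZNF432 and ZNF616, read 7.52, 7.41 and 7.58 on PRL-3 arrays and 7.45, 7.48 and 7.74 on control arrays, and the groups overlapped (-0.05 ± 0.096, adjusted p = 0.838, limma). ZNF615 (-0.19), ZNF836 (-0.13) and ZNF766 (0.04) did not pass, nor did PPP2R1A (-0.25), a phosphatase 2A subunit gene among them. Of the 13 measured genes in the 16 places before the run 0 were lower and 1 was higher, SIGLEC6. Of the 14 in the 16 places after it 1 was lower, VSTM1 (-1.18). These neighbours, like the run itself, were named after their values were seen.

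**Figure D3:**
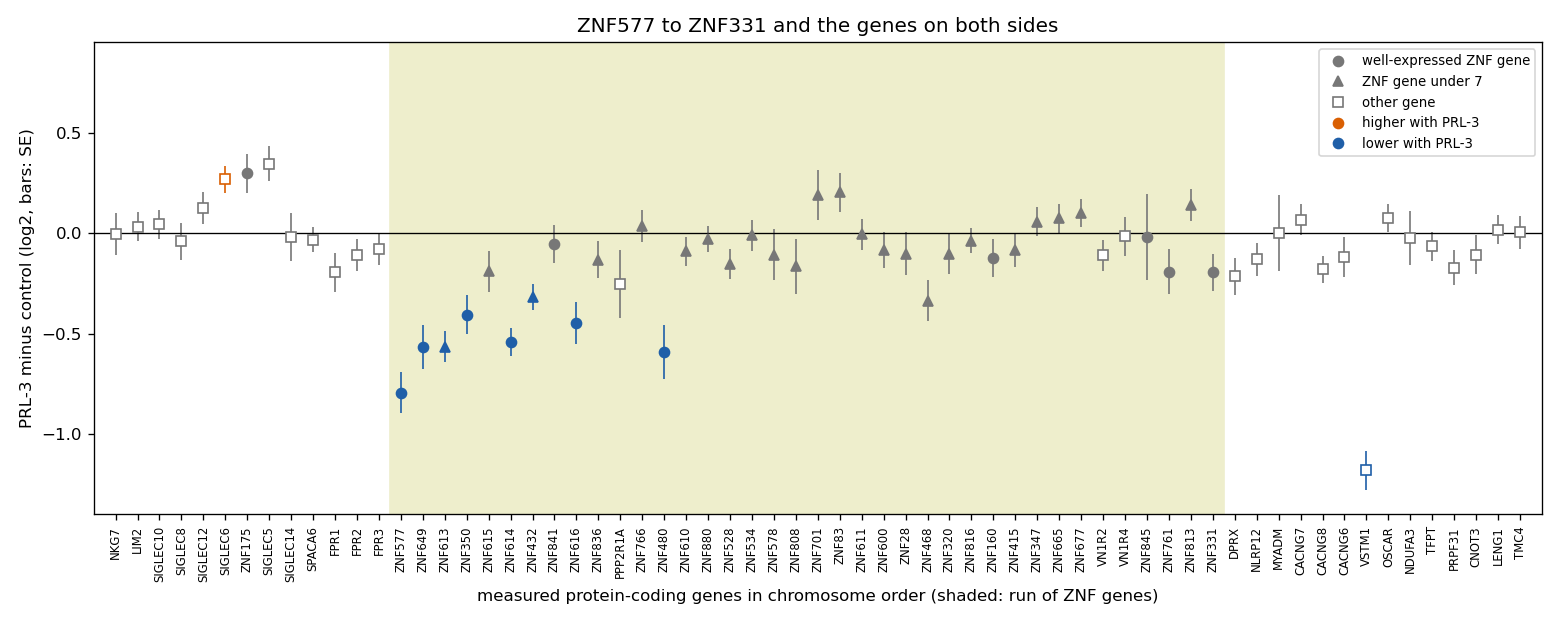
Difference between PRL-3 and control arrays (log2, y axis, bars are standard errors) for measured protein-coding genes in chromosome order (x axis), with the run from ZNF577 to ZNF331 shaded. Lower ZNF genes lie between ZNF577 (-0.79) and ZNF480 (-0.59), with ZNF841 (-0.05) among them.

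The other runs did not hold such a block. There were 11 runs with 4 or more members, 8 of them on chromosome 19, and in each of the 10 others at most 1 member was lower. Together these 10 held 88 members, of which 7 were lower and 1 higher. The largest, from ZNF101 to ZNF254, had 19 members with a median of 0.10, and only its brightest, ZNF626, was lower, with 0 higher. The run from ZNF565 to ZNF573 had 15 members and 1 lower, ZNF790, and that from ZNF264 to ZNF446 had 16 and 1 lower, ZNF460. From ZNF653 to ZNF791 there were 9 members with ZNF69 lower, from ZNF317 to ZNF846 6 members with ZNF266 lower, and from ZNF628 to ZNF580 and from ZNF302 to ZNF792 6 and 4 members with 0 that passed. On other chromosomes, the run from ZNF248 to ZNF33B held 4 members with ZNF33A lower, that from ZNF205 to ZNF597 4 with ZNF75A lower, and that from ZNF722 to ZNF92 5 with ZNF680 higher and a median of 0.23. Of all 101 members on chromosome 19, 12 were lower (11.9%) and 1 higher, beside 12 lower and 14 higher of 458 other genes there at 7 or more. The run from ZNF577 to ZNF331 held 6 of these 12 lower members. Of 97 members on other chromosomes 8 were lower (8.25%) and 5 higher. Whether chromosome 19 differs from the others was not tested.

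Among members outside that run, the KRAB genes ZNF75A and ZNF790 fell most. ZNF75A read 7.65, 7.67 and 7.74 on PRL-3 arrays, against 8.50, 8.38 and 8.16 on control arrays (-0.66 ± 0.095, adjusted p = 0.00560, limma). ZNF790 read 7.84, 7.83 and 8.02 with PRL-3 and 8.46, 8.64 and 8.58 in control (-0.66 ± 0.083, adjusted p = 0.00331, limma). In both the groups stood well apart. A dimmer probe set of ZNF75A (level 6.53) differed by -0.36 and did not pass. ZNF202, a SCAN and KRAB repressor of lipid metabolism genes, read 6.92, 6.87 and 7.02 with PRL-3, against 7.33, 7.46 and 7.41 in control (-0.46 ± 0.072, adjusted p = 0.00779, limma). ZNF460 differed by -0.46 ± 0.096 and ZNF69 by -0.36 ± 0.074 (adjusted p = 0.0258 and 0.0252, limma). ZNF626, the brightest member, read 11.21, 11.29 and 11.24 with PRL-3 and 11.68, 11.52 and 11.51 in control (-0.32 ± 0.074, adjusted p = 0.0361, limma). Its other probe set averaged 5.93 and did not differ (-0.10), so its level depends on which probe set is read.

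Further lower members were ZNF521, ZNF131, ZNF473 and ZNF407. ZNF521, which binds the NuRD complex and is active in immature haematopoietic cells, read 8.84, 8.85 and 8.74 on PRL-3 arrays, against 9.34, 9.31 and 9.20 on control arrays. Each group was tight, and the difference was -0.48 ± 0.073 (adjusted p = 0.00718, limma). ZNF131, a BTB domain factor, read 8.72, 8.59 and 8.71 with PRL-3 and 9.13, 9.02 and 9.22 in control (-0.45 ± 0.078, adjusted p = 0.0116, limma). ZNF473, which takes part in cutting the ends of histone messenger RNAs, read 7.67, 7.79 and 7.66 with PRL-3, against 8.12, 8.25 and 7.99 in control (-0.41 ± 0.086, adjusted p = 0.0258, limma). ZNF407, a protein of many fingers, differed by -0.40 ± 0.067 (adjusted p = 0.0101, limma).

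The largest rise was in ZNF670, a KRAB gene on chromosome 1. It read 7.71, 7.59 and 7.91 on PRL-3 arrays, against 6.82, 6.83 and 6.94 on control arrays. The groups did not come near each other, and the difference of 0.87 ± 0.093 (1.83-fold, adjusted p = 0.00162, limma) was the largest among members. ZNF143, an activator that binds the promoters of small nuclear RNA and many housekeeping genes, read 8.12, 7.89 and 7.95 with PRL-3 and 7.39, 7.65 and 7.44 in control (0.49 ± 0.095, adjusted p = 0.0197, limma). ZNF558, a KRAB gene, read 7.91, 7.60 and 7.85 with PRL-3, against 7.20, 7.38 and 7.45 in control (0.44 ± 0.10, adjusted p = 0.0395, limma). In ZNF558 the array PRL-3 5 lay near control 3.

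ZNF184, a KRAB gene, read 8.76, 8.63 and 8.57 on PRL-3 arrays and 8.21, 8.22 and 8.36 on control arrays (0.39 ± 0.079, adjusted p = 0.0237, limma). ZNF277, which binds the ribosomal protein RPS2, read 8.25, 8.15 and 8.31 with PRL-3, against 7.81, 7.86 and 7.94 in control (0.36 ± 0.075, adjusted p = 0.0245, limma). ZNF680 read 7.18, 7.11 and 7.29 with PRL-3 and 6.87, 6.94 and 6.87 in control (0.30 ± 0.073, adjusted p = 0.0460, limma). All 3 rises were small, and ZNF277, ZNF558 and ZNF680 did not pass after quantile normalization. Dimmer probe sets of ZNF277 (-0.02) and, among the lower members, of ZNF616 (0.03) did not pass.

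**Figure D4:**
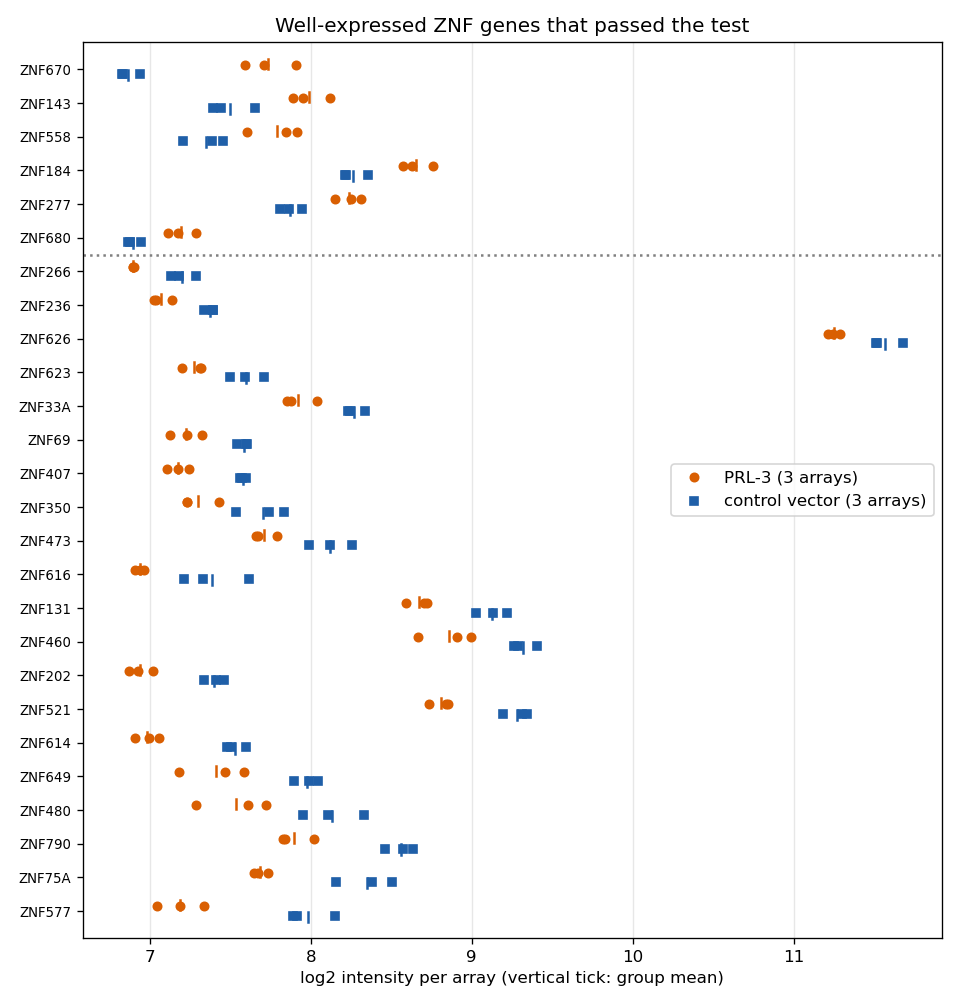
Log2 intensity (x axis) on each of 3 PRL-3 and 3 control arrays for the 26 members that passed (rows), with group means as ticks. The 6 genes above the dotted line were higher with PRL-3 and the 20 below it lower, and in each row the groups do not overlap.

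Most of the brightest members did not pass. ZNF146, a protein of fingers alone, differed by -0.01 ± 0.14 (adjusted p = 0.978, limma), ZNF518A by -0.21 ± 0.14 (adjusted p = 0.521, limma) and ZNF850, a KRAB gene, by -0.15 ± 0.076 (adjusted p = 0.321, limma). ZNF207, which helps to assemble the mitotic spindle, differed by 0.02 ± 0.070 (adjusted p = 0.941, limma). In ZNF207 the 3 PRL-3 arrays read 10.04, 9.90 and 9.89 and the control arrays 9.91, 9.93 and 9.93, so the groups overlapped. ZNF genes are similar in sequence, and a probe set may read part of a close copy.

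Few genes of the corepressors that KRAB and other zinc finger proteins recruit passed. Of 32 such genes measured, 2 were lower, 0 were higher and 30 did not pass, and 26 had a negative difference (median -0.12). The share called was 6.25%, all of it lower, beside 7.69% called and 3.11% lower over all genes. The median level of the list was 8.86. Among genes at 7 or more, 12.2% were called, 5.26% were lower and 51.1% had a negative difference. TRIM28 read 8.48, 9.17 and 8.72 on PRL-3 arrays, against 9.34, 8.87 and 8.58 on control arrays, which overlapped (-0.14 ± 0.22, adjusted p = 0.812, limma). SETDB1 differed by -0.04 ± 0.092 (adjusted p = 0.883, limma). RBBP4, a histone chaperone of NuRD and other complexes, differed by -0.31 ± 0.063, at 10.36, 10.29 and 10.30 with PRL-3 and 10.61, 10.63 and 10.64 in control (adjusted p = 0.0241, limma). SUV39H1, a histone H3 methyltransferase, differed by -0.42 ± 0.10 (adjusted p = 0.0459, limma). Both lost the call in each fit with 1 array left out other than control 3 (adjusted p = 0.0523 to 0.176, limma).

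In 54 other zinc finger genes at the same level, of the ZFP, ZSCAN, ZKSCAN, ZBTB, PRDM and KLF families, 2 were lower and 1 was higher. These shares of 3.70% and 1.85% lie under the 5.26% lower and 6.96% higher of all genes at 7 or more. ZBTB1, a BTB factor needed for lymphocyte development in mice, read 6.76, 6.57 and 6.72 on PRL-3 arrays, against 7.36, 7.70 and 7.48 on control arrays (-0.83 ± 0.10, adjusted p = 0.00281, limma). ZBTB24, a gene mutated in an inherited immunodeficiency, differed by -0.29 ± 0.069 (adjusted p = 0.0402, limma). ZFP1 rose by 0.51 ± 0.083 (adjusted p = 0.00921, limma). The median of this group was -0.08, and 35 of 54 had a negative difference. In 14 of them, or 25.9%, every PRL-3 array lay below every control array, and in 5, or 9.26%, above. Among members these shares were 21.7% and 13.6%. Whether the ZNF members differ from it was not tested.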

How the data were processed

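The authors deposited linear intensities of 28869 probe sets, 1 value for each array. How they summarised, background-corrected and normalized the arrays is not given in the sources used here. Medians lie close together, so the values were taken as normalized between arrays, and a change common to most genes may be lost. Per the labels, biotinylated cDNA was made from 100 ng total RNA with Nugen kits. Log2 was taken without an offset. The platform annotation gave 19310 probe sets exactly 1 symbol, 1752 several and 7807 none, and only the first were used. The brightest probe set over 6 arrays stood for a gene, and 6 members had more than 1. The test was the moderated two-sided one of limma (version 3.58.1, under R 4.3.3), with lmFit and eBayes over all genes, and was tested on simulated data. No low value was filtered out, since no detection call is given, and the number of arrays limits the precision. Promoters and gene order came from RefSeq, GRCh38.p14, and all 198 members matched a gene there. Errors after ± are standard errors.

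The members, the lists and the rule for naming genes were chosen with earlier results of these data known. The rule named the 15 largest falls and all rises among members, the 5 brightest, the 3 on each side of the level, runs with 4 or more members, and the largest changes of each other list. Other names were chosen after their values were seen. Domains are background, since no protein sequence was used here. Alternatives were other normalizations, variance models, levels and probe set rules, an unequal-variance test, and fewer arrays.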

Additional observations from a re-analysis of the deposited data

How the results depend on the processing

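PTP4A3 and the sign of all 26 passing members held in each alternative, and the members' median stayed within its spread per array (0.035), from -0.068 to -0.029. Counts moved. Members higher were 3 after quantile normalization, 29 with array weights and 0 by the unequal-variance test, with 2 at a level of 8. Members lower were 48 with array weights, 0 by the unequal-variance test and 7 at a level of 8. With 1 array left out they ranged from 1 to 10 higher and from 7 to 21 lower. Array weights, which called 2122 genes higher and 2303 lower in all, also gave 3 higher and 10 lower corepressors, 5 higher and 15 lower genes of other families, and 26 higher and 34 lower dim ZNF genes. The unequal-variance test, which called 7 genes higher and 4 lower in all, gave 0 in each of these lists and in the ZNF577 run. Shifting arrays to 1 median or an intensity trend left 1 lower gene of other families. Without control 1 and PRL-3 5 there were 1 lower corepressor, 1 lower gene of other families and 4 lower dim ZNF genes. Quantile normalization left 3 lower members and 5 lower ZNF genes in the run, a count added after seeing the data. Leaving out 1 array gave 0 to 1 higher and 0 to 3 lower corepressors, 0 to 1 higher and 1 to 5 lower genes of other families, and 1 to 7 higher and 2 to 9 lower dim ZNF genes. In the run it gave 2 to 6 lower members and 3 to 7 lower ZNF genes. ZNF146, which did not pass, changed sign with array weights (0.12), without control 1 and PRL-3 5 (0.078) and with 1 array left out (-0.092 to 0.144). ZNF775 did so without control 1 and PRL-3 5 (-0.049) and with 1 array left out (-0.012 to 0.093). With 1 array left out ZNF207 ranged from -0.031 to 0.044, ZNF439 from -0.142 to 0.0084, ZNF28 from -0.162 to 0.0099, TRIM28 from -0.329 to 0.066 and SETDB1 from -0.107 to 0.022. The causes were not tested. No paired analysis was possible because the labels number control arrays 1 to 3 and PRL-3 arrays 4 to 6, with no shared number. Low intensities have no known floor.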

Other observations

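Among the 281 ZNF genes under the level of 7, 5 were higher and 10 lower with PRL-3. These shares of 1.78% and 3.56% stand beside 4.58% higher and 3.11% lower over all genes tested. ZNF204P, annotated as a pseudogene, had the largest rise of all measured ZNF genes. It read 6.65, 6.15 and 6.32 on PRL-3 arrays, against 5.14, 5.27 and 5.21 on control arrays (1.17 ± 0.12, adjusted p = 0.00153, limma). ZNF676 (0.47 ± 0.085, adjusted p = 0.0145, limma) and ZNF404 (0.53 ± 0.13, adjusted p = 0.0438, limma) were higher too. ZNF300 fell most, at 6.64, 6.41 and 6.52 with PRL-3 and 7.09, 7.26 and 7.24 in control (-0.67 ± 0.086, adjusted p = 0.00352, limma). ZNF613, in the run from ZNF577 to ZNF331, read 6.57, 6.65 and 6.77 with PRL-3, against 7.24, 7.28 and 7.16 in control (-0.56 ± 0.076, adjusted p = 0.00429, limma). ZNF594 differed by -0.43 ± 0.10 (adjusted p = 0.0460, limma). For these dim genes the share above background is unknown.

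On chromosome 18, 3 of 4 members were lower, ZNF521, ZNF407 and ZNF236 (-0.31), and ZNF24 did not pass (0.06). Of 112 other genes there at 7 or more, 5 were lower and 10 higher. This chromosome was singled out after its values were seen, so the count carries no test.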
